A study of Homo sapiens with 12 samples.

Results

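Latent TGF-β binding proteins, TGF-β ligands and their nearest partners were followed in 2 Ewing sarcoma (EwS) cell lines in which the cytokinesis gene PRC1 could be silenced. The 10 genes were LTBP1, LTBP2, LTBP3 and LTBP4, the ligands TGFB1, TGFB2 and TGFB3, the receptors TGFBR1 and TGFBR3, and TGFBI. They were taken by gene symbol, and all but TGFB2 were among the 33616 genes with a probe set of their own. The set was chosen by the measured doxycycline (Dox) response of LTBP1, which was lower with Dox in all 4 derivative lines carrying a hairpin against PRC1. For 9 of the 10 genes a probe set carried 1 symbol, and 7 of these lay above the filter of a mean log2 signal of 6.5 over the 6 arrays without Dox. The only probe set of TGFB2 also carried the symbol of an overlapping transcript, so no value is given for it.

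TGF-β is secreted in a latent form, in which the mature ligand stays bound to its own propeptide. LTBPs are large extracellular proteins, and most of them bind this small latent complex by disulfide bonds and anchor it in fibrillin and fibronectin matrix, from which integrins and proteases release the ligand. The free ligand is bound by the type II and type I receptors, partly with the help of betaglycan, the product of TGFBR3, and the type I receptor TGFBR1 phosphorylates SMAD proteins.

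SK-N-MC and RDES are established EwS cell lines. Each carried 1 of 3 hairpins in the Dox-inducible all-in-one vector pLKO-TET-ON, introduced by lentivirus with puromycin selection: shCtrl, which has no target in PRC1, shCDS against the coding sequence of PRC1, or shUTR against its untranslated region. Every one of these 6 derivative lines was kept without Dox, written Dox (−), or with Dox at 1 µg/ml for 60 h with a renewal at 48 h, written Dox (+), and every condition was hybridized to 1 Clariom D array, 12 in all. No condition was repeated, so errors given here rest on spreads between derivative lines or arrays of different conditions. The standard errors are moderated by limma, which draws the spread of each gene towards that of all genes.

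The hairpins set every contrast, and their guide strands are shown with the seed, bases 2 to 8, in capitals. Each guide is 21 bases long, and the 3 seeds have different letters.
shCtrl guide: tTGGTGCTcttcatcttgttg
shCDS guide: aAATGCCTttgaatgttcctg
shUTR guide: tATGTGGTagagaagtcaggc

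With Dox, PRC1, which bundles microtubules in the spindle midzone, was left at 6.18% of its Dox (−) signal in SK-N-MC shCDS, 13.1% in SK-N-MC shUTR, 6.42% in RDES shCDS and 36.2% in RDES shUTR, and at 92.4% and 97.6% in the shCtrl pairs. In STAG2 and BGN the arrays labelled RDES shCtrl lay with SK-N-MC and not with RDES. The cohesin gene STAG2 had log2 signals of 6.10 and 6.01 on them, against means of 5.99 over the shPRC1 arrays of SK-N-MC and 13.92 over those of RDES, and the proteoglycan gene BGN had 15.59 and 15.67, against means of 15.77 and 4.61. STAG2 was at 9.15 and 9.32 on the SK-N-MC shCtrl arrays, between both levels. Other genes set the arrays labelled RDES shCtrl apart from SK-N-MC. The mean of the integrin subunit gene ITGB8 was 12.72 on them, 9.70 in SK-N-MC shPRC1, 9.87 in SK-N-MC shCtrl and 5.64 in RDES shPRC1. The comparison of the cell lines therefore uses only the 4 shPRC1 derivative lines, and the shCtrl arrays are given beside it. Over 9 measured Ewing sarcoma markers the mean log2 signal was 12.66 to 12.91 on the SK-N-MC shPRC1 arrays, 13.45 to 13.84 on the RDES shPRC1 arrays and 12.75 to 12.90 on the shCtrl arrays. Below 6.5 on every array were 4 of 6 endothelial markers (PECAM1, CDH5, KDR and TEK), 4 of 6 measured blood cell markers (CD68, LYZ, CD14 and HBB) and 4 of 5 epithelial markers (EPCAM, CDH1, KRT5 and KRT14). The 9 measured fibroblast and stroma markers averaged 8.52 to 8.97 in SK-N-MC shPRC1 and 7.89 to 8.09 in RDES shPRC1, with POSTN below 6.5 throughout. They averaged higher on the shCtrl arrays, 8.97 to 9.16 in SK-N-MC and 9.32 to 9.47 on those labelled RDES.

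LTBP1 (chr2:32946953-33399509, GRCh38.p14), the best known matrix anchor of latent TGF-β, was the member with the widest range. In SK-N-MC the Dox (−) and Dox (+) arrays had log2 signals of 11.18 and 9.76 for shCDS, 11.07 and 9.82 for shUTR, and 9.68 and 10.47 for shCtrl. In RDES it was 6.76 and 6.69 in shCDS and 7.19 and 6.66 in shUTR. On the arrays labelled RDES shCtrl it was 9.61 and 10.13. The RDES shPRC1 arrays were thus all close to the filter of 6.5 and lay below each of the other 8 arrays, and the arrays labelled RDES shCtrl lay among those of SK-N-MC.

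**Figure D1:**
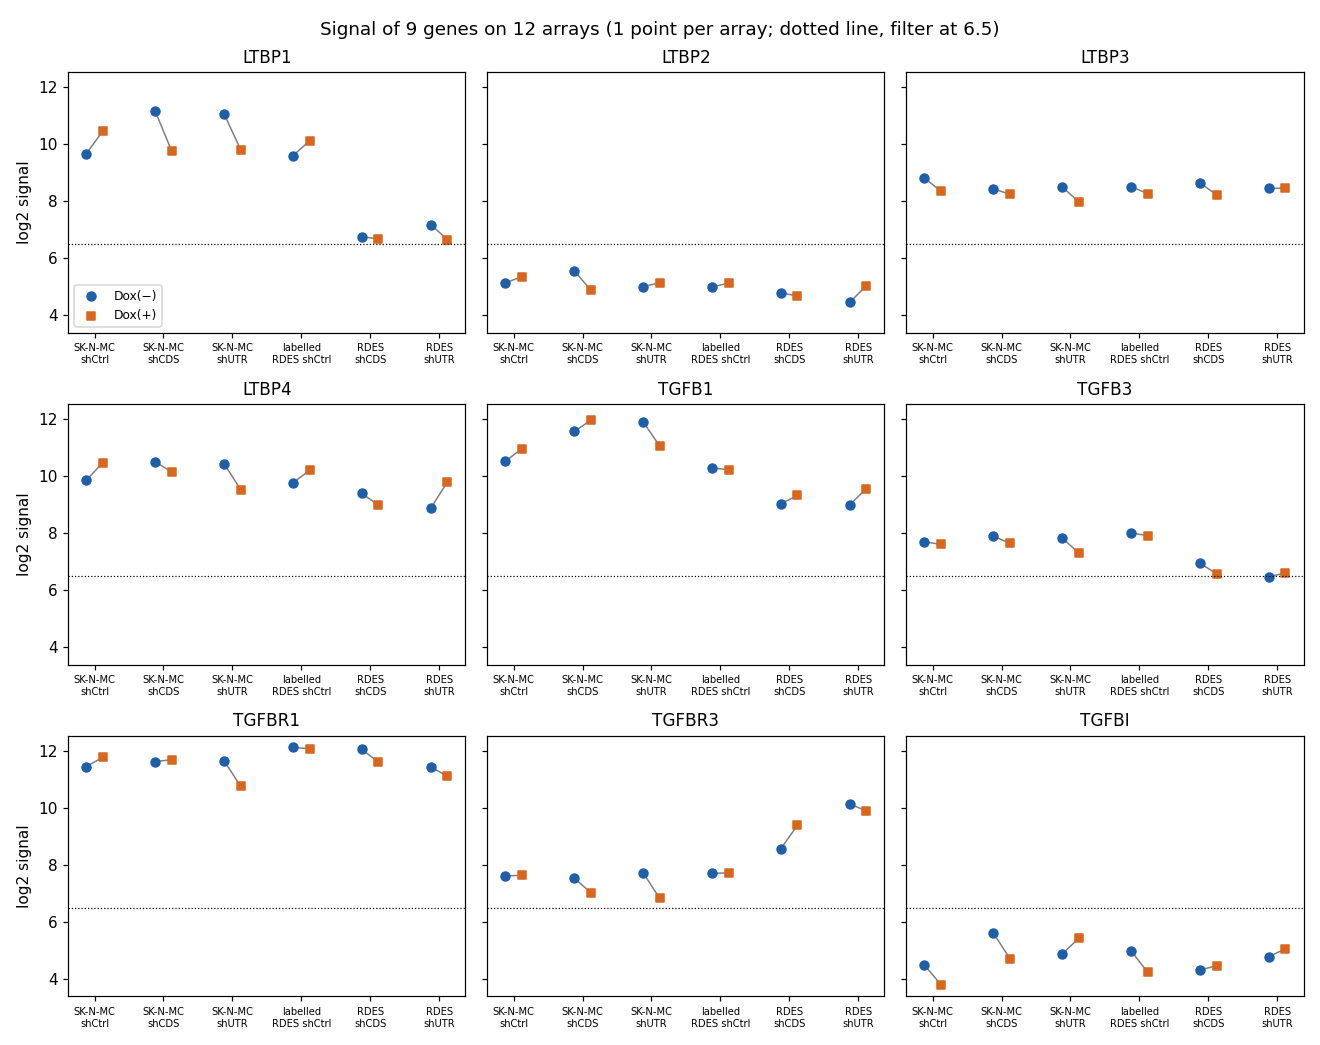
Log2 signal (y axis) of the 9 genes with a probe set of their own on each of the 12 arrays (x axis, derivative lines; circles Dox (−), squares Dox (+), lines join a pair; dotted line, the filter of 6.5). LTBP1 lies between 6.66 and 7.19 on the RDES shPRC1 arrays and between 9.61 and 11.18 on the other arrays, and LTBP2 and TGFBI lie below the filter on all 12.

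Between the cell lines, the mean log2 signal of LTBP1 was 10.46 ± 0.77 in SK-N-MC and 6.82 ± 0.25 in RDES (SD, n = 4 arrays of the shPRC1 lines each). The difference was −3.63 with a standard error of 0.19, a 12.4-fold lower signal in RDES, and passed the limma test over all 15247 genes (adjusted p = 1.47e-05, 2 derivative lines against 2). It averages the Dox (−) and Dox (+) arrays of each line, as do the cell line differences of the other members. On the Dox (−) arrays alone it was −4.15 (limma, adjusted p = 2.265e-05). With the shCtrl lines included under their labels, the difference was −2.49 and did not pass (adjusted p = 0.3535), nor did that of any other member. LTBP1 ranked 100 among the genes when ordered from the most negative cell line difference. In bulk RNA a lower signal in every cell and a smaller share of cells with the RNA cannot be told apart. Of the 7 members above the filter, 4 were lower and 1 was higher in RDES, while over all 15247 genes 20.8% were lower and 16% were higher. These 7 hold LTBP1, and they were not drawn without knowledge of the data.

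LTBP3 (chr11:65538559-65558359), a binding protein known for its part in skeletal and dental development, varied little. In SK-N-MC its Dox (−) and Dox (+) arrays were at 8.44 and 8.26 for shCDS and at 8.51 and 7.99 for shUTR, and in RDES at 8.65 and 8.24 for shCDS and at 8.46 and 8.47 for shUTR. The shCtrl arrays ranged from 8.27 to 8.83 and overlapped with both lines. The cell line difference of 0.15 with a standard error of 0.18 did not pass the test (limma, adjusted p = 0.555).

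LTBP4 (chr19:40593166-40629820), which binds latent TGF-β weakly and takes part in elastic fibre assembly, was lower in RDES by a smaller amount. In SK-N-MC the Dox (−) and Dox (+) arrays were at 10.51 and 10.15 for shCDS and at 10.45 and 9.53 for shUTR. In RDES it was at 9.40 and 8.98 in shCDS and at 8.89 and 9.80 in shUTR. The ranges overlapped, since the Dox (+) array of RDES shUTR lay above the Dox (+) array of SK-N-MC shUTR. The cell line difference was −0.89 with a standard error of 0.20 (limma, adjusted p = 0.0123). With the mean of both LTBP4 probe sets it was −0.55 and no longer passed (adjusted p = 0.0695), and without SK-N-MC shCDS it was −0.72 (adjusted p = 0.117).

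LTBP2 (chr14:74498183-74612237), a microfibril protein that does not bind latent TGF-β, stayed between 4.47 and 5.57 on the 12 arrays. It was below the filter on each of them and entered no test.

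Among the ligands, TGFB1 (chr19:41330323-41353922), the most widely expressed isoform, was lower in RDES. Among the SK-N-MC arrays, again Dox (−) before Dox (+), it was at 11.57 and 11.97 for shCDS and at 11.91 and 11.06 for shUTR. In RDES it was at 9.04 and 9.33 in shCDS and at 9.00 and 9.57 in shUTR. The shCtrl arrays lay between the cell lines, at 10.53 and 10.97 in SK-N-MC and at 10.29 and 10.23 on those labelled RDES. Mean signals were 11.63 ± 0.42 in SK-N-MC and 9.24 ± 0.27 in RDES (SD, n = 4 arrays each). The cell line difference was −2.39 with a standard error of 0.20, a 5.25-fold lower signal in RDES (limma, adjusted p = 0.000126).

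TGFB3 (chr14:75958097-75983011), an isoform known for its role in palate fusion, had signals of 7.90 and 7.65 in shCDS and of 7.83 and 7.31 in shUTR of SK-N-MC, Dox (−) given first. In RDES it was at 6.95 and 6.58 in shCDS and at 6.48 and 6.60 in shUTR, and the shCtrl arrays lay between 7.61 and 8.01. The RDES shPRC1 arrays did not overlap with any other array and were near the filter. The cell line difference was −1.02 with a standard error of 0.20, a 2.03-fold lower signal in RDES (limma, adjusted p = 0.0059). Without SK-N-MC shCDS it was −0.92 and the adjusted p was 0.0623.

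The type I receptor TGFBR1 (chr9:99103647-99154192) did not separate the lines. It ranged from 10.77 to 11.70 in SK-N-MC shPRC1, from 11.12 to 12.06 in RDES shPRC1 and from 11.46 to 12.13 on the shCtrl arrays, and these ranges overlapped. The cell line difference was 0.12 with a standard error of 0.26 (limma, adjusted p = 0.757).

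The co-receptor gene TGFBR3 (chr1:91680343-91906002) was the one member with a higher signal in RDES that passed the test. It was at 8.58 without and 9.40 with Dox in RDES shCDS and at 10.14 and 9.91 in RDES shUTR. In SK-N-MC it was at 7.55 and 7.03 in shCDS and at 7.73 and 6.83 in shUTR, and the shCtrl arrays were tightly grouped between 7.62 and 7.73. The RDES shPRC1 arrays lay above all others and differed among themselves by more than the SK-N-MC arrays did. Mean signals were 7.29 ± 0.42 in SK-N-MC and 9.51 ± 0.69 in RDES (SD, n = 4 arrays each), a difference of 2.22 with a standard error of 0.32 and a 4.65-fold higher signal in RDES (limma, adjusted p = 0.00168).

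TGFBI (chr5:136028988-136063818), which encodes a secreted matrix protein first found as a TGF-β-induced transcript, was between 3.81 and 5.63 on the 12 arrays and below the filter on all of them.

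**Figure D2:**
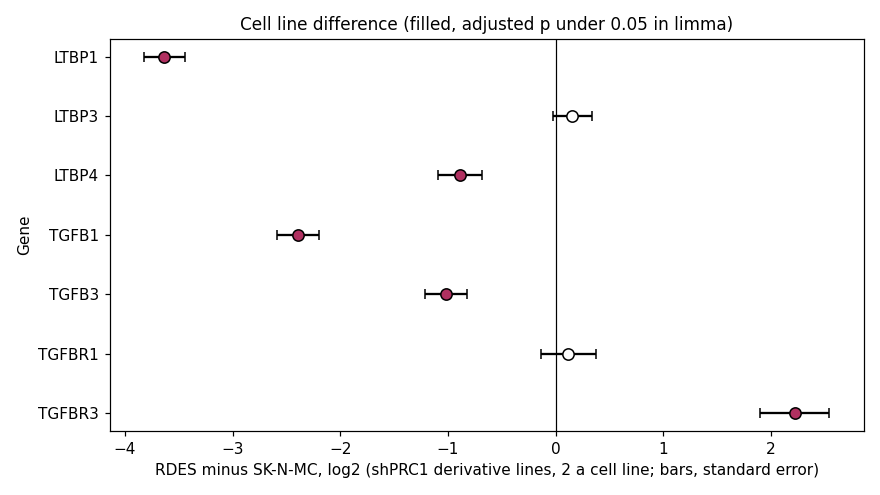
Cell line difference, RDES minus SK-N-MC, in log2 (x axis) for the 7 genes above the filter (y axis), from 2 shPRC1 derivative lines a cell line; bars are standard errors and filled points passed an adjusted p of 0.05 in limma. LTBP1 at −3.63 and TGFB1 at −2.39 lie furthest to the left and TGFBR3 at 2.22 furthest to the right.

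The Dox contrast asks which genes changed when PRC1 was silenced. Because LTBP1 was known to be lower in it when the set was drawn up, the members' values in this contrast are a description without a test. LTBP1 was left at 37.5% of its Dox (−) signal in SK-N-MC shCDS and at 42.0% in SK-N-MC shUTR, which are log2 differences of −1.41 and −1.25. In RDES, where the signal was low to begin with, it was left at 95.1% in shCDS and 69.5% in shUTR, which are −0.07 and −0.53. In the shCtrl pairs it was higher with Dox, at 173% in SK-N-MC and at 143% in the pair labelled RDES, which are 0.79 and 0.52. The mean over the 4 shPRC1 lines was −0.82 ± 0.63 (SD, n = 4 lines), where the median of all genes was 0.01, and it was −1.47 ± 0.78 once the Dox difference of the shCtrl pair of that label had been taken off each line. For the RDES lines this used a pair of arrays that lay with the other cell line in STAG2 and BGN. With the SK-N-MC shCtrl pair taken off all 4 lines the mean was −1.61, and with the pair labelled RDES taken off all 4 it was −1.33. After the subtraction by label the mean was −2.13 over the SK-N-MC lines alone and −0.82 over the RDES lines alone.

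Being lower with Dox in all 4 shPRC1 lines held for LTBP1 alone among the 7 members, and for 5.11% of all 15247 genes. LTBP1 was also among the 7.55% of genes lower in all 4 lines after the subtraction, where TGFBR1 was the other such member. It was also among the 1.4% lower in all 4 lines and higher in both shCtrl pairs. These were 214 of the 779 genes lower in all 4 lines, the condition by which LTBP1 was chosen. In the shCtrl pairs, 34.7% of all genes were lower with Dox in SK-N-MC and 63.5% in the pair labelled RDES. Just inside the condition, LTBP1 had −0.07 in RDES shCDS as its weakest line, and just outside it LTBP3 had 0.02 in RDES shUTR and TGFBR1 had 0.07 in SK-N-MC shCDS as the only line that was not lower. In the limma fit of the silencing effect, 0% of the genes passed, so that PRC1 itself did not. An unadjusted p under 0.05 was found for 401 of the 15247 genes, also below the share of 0.05 expected if no gene changed. With a prior variance that follows the signal, 1 gene passed.

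The Dox (−) arrays of LTBP1 did not start from the same level. In SK-N-MC, the uninduced shPRC1 arrays had a mean of 11.12, which was 1.45 above the uninduced shCtrl array and 1.52 above the uninduced array labelled RDES shCtrl. The induced shPRC1 arrays had a mean of 9.79, which lay within the range of the 4 shCtrl arrays, 9.61 to 10.47. TGFB1 also started higher in the uninduced SK-N-MC shPRC1 arrays, by 1.21 over the SK-N-MC shCtrl array and by 1.45 over the one labelled RDES. With 1 array a condition, a difference between derivative lines and one between arrays cannot be told apart.

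**Figure D3:**
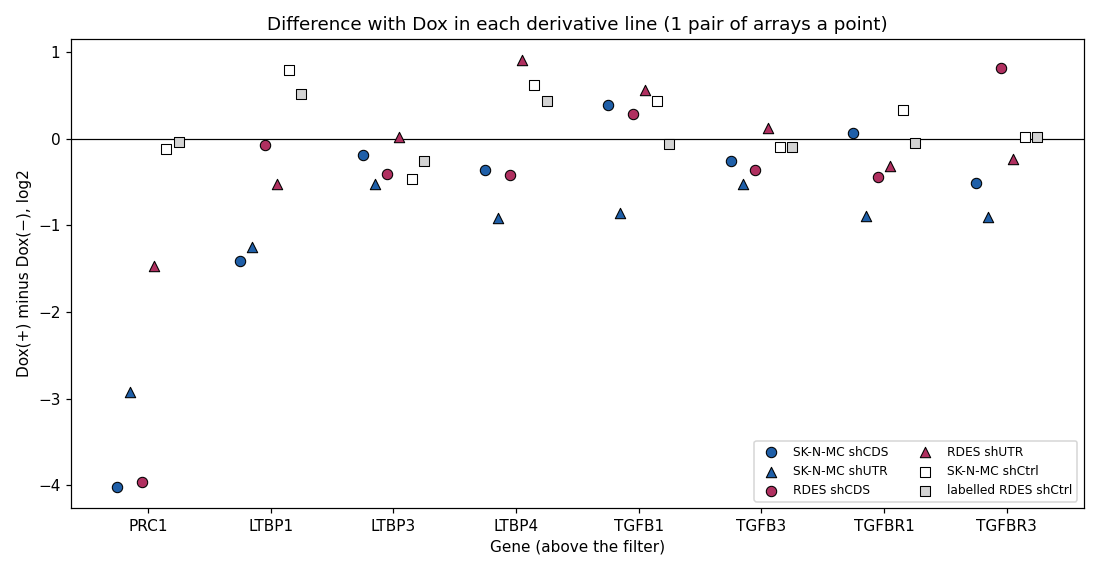
Dox (+) minus Dox (−) in log2 (y axis) for PRC1 and the 7 genes above the filter (x axis), 1 point for each pair of arrays; blue points are SK-N-MC and red points RDES shPRC1 lines (circles shCDS, triangles shUTR), squares the shCtrl pairs. PRC1 lies between −4.02 and −1.47 in the shPRC1 lines, and LTBP1 is below 0 in all 4 of them and above 0 in both shCtrl pairs.

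The other members had Dox differences of both signs. LTBP4 was at −0.37 (shCDS) and −0.92 (shUTR) in SK-N-MC, at −0.42 in RDES shCDS and at 0.91 in RDES shUTR, and at 0.62 and 0.43 in the shCtrl pairs. On this, the brighter of its probe sets, the RDES lines thus pointed in opposite directions. On the other LTBP4 probe set, Dox (−) and Dox (+) signals were 8.80 and 8.78 in SK-N-MC shCDS and 8.62 and 8.81 in shUTR. They were 8.45 and 8.18 in RDES shCDS and 8.79 and 8.75 in RDES shUTR, so both RDES lines were lower. Both shCtrl pairs were lower there too, from 9.03 to 8.73 and from 8.85 to 8.81. LTBP3 had Dox differences of −0.19, −0.52, −0.41 and 0.02 in the same order, but its shCtrl pairs were also lower, at −0.47 and −0.25. TGFB1 had 0.39, −0.85, 0.29 and 0.57, with its single negative value in SK-N-MC shUTR. These genes therefore had no common direction over the 4 lines.

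TGFB3 had −0.25, −0.53, −0.37 and 0.12, beside −0.09 in each shCtrl pair. TGFBR1 had 0.07, −0.89, −0.45 and −0.32, beside 0.33 and −0.05. TGFBR3 had −0.51 and −0.90 in SK-N-MC, 0.82 and −0.23 in RDES, and 0.02 in each shCtrl pair. On the brightest probe set of each gene, all 7 members were lower with Dox in SK-N-MC shUTR, as were 65.9% of all genes. In RDES shUTR 3 of the 7 were lower, as were 28.8% of all genes. The Dox effect of LTBP1 was −1.33 on average in SK-N-MC and −0.30 in RDES, and that of TGFBR3 was −0.71 and 0.29. None of the 7 was among the 2 genes, 0.0131% of all, whose Dox effect differed between the cell lines in limma. An unadjusted p under 0.05 was found there for 688 of the 15247 genes, below the share of 0.05 expected if no gene differed.

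Over the 12 arrays, the genes whose signal followed LTBP1 most closely were SKAP2 with a Pearson r of 0.991, NID2 with 0.988, SREBF1 with 0.988, CNTN1 with 0.987, ACSF2 with 0.983, ATP2B4 with 0.983, LRP10 with 0.982 and MORC4 with 0.982. The arrays share the wide difference between the lines, so these values are a description. NID2, a basement membrane nidogen, was at 9.51 and 8.08 on the Dox (−) and Dox (+) arrays of SK-N-MC shCDS, was at 9.48 and 8.59 in shUTR, and between 5.35 and 5.78 in RDES shPRC1. Its shCtrl arrays lay between 8.11 and 8.49. SREBF1, a transcription factor of lipid synthesis, was at 12.10 and 11.24 in SK-N-MC shCDS, at 12.41 and 11.20 in SK-N-MC shUTR and between 8.51 and 8.92 in RDES shPRC1. Both genes had higher uninduced shPRC1 than uninduced shCtrl signals in SK-N-MC, as LTBP1 did. Of the 8 genes, NID2, LRP10 and MORC4 were lower with Dox in all 4 shPRC1 lines. Among the members, TGFB3 had an r of 0.908 with LTBP1, TGFB1 0.879, LTBP4 0.827, TGFBR1 0.125, LTBP3 −0.10 and TGFBR3 −0.83.

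Of 170 other TGF-β pathway genes in 7 lists, 158 were measured and 99 lay above the filter. In the cell line comparison 38 of the 99 were lower in RDES, 22 were higher and 39 did not pass, where 20.8% of all genes were lower and 16% were higher, and the median difference was −0.23 against −0.09 over all genes. In 11 of the 38 and 1 of the 22 the line with the lower signal had a mean below the filter of 6.5, so that these genes entered the test only through the other arrays. For such genes the difference is given with that mean held at 6.5, as a bound on a dim signal. With Dox, 4 of the 99 were lower and 7 were higher in all 4 shPRC1 lines, where the condition held for 5.11% and 7.14% of all genes. Single-gene Dox values are given below only for genes with the same sign in all 4 lines. The other genes with the widest mean Dox differences of their lists had both signs. Their means were −0.60 for DCN, −0.59 for ITGAV, 0.54 for MFAP4, −0.53 for GDF11, −0.51 for MFAP2 and 0.50 for BMP2. Further means were −0.45 for MMP14, 0.44 for NRP1, −0.42 for SMAD3, 0.41 for ACTA2, −0.39 for CRIM1, −0.38 for NEDD4L and 0.27 for CER1.

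In the list of latent complex, storage and matrix anchoring, 6 of 12 genes above the filter were lower in RDES, 2 were higher and 4 did not pass. The microfibril-associated MFAP4 differed by −4.77, from a mean of 15.95 in SK-N-MC to 11.18 in RDES (limma, adjusted p = 5.33e-06). With RDES means below the filter, the differences were at least −9.27 for BGN, which encodes the proteoglycan biglycan (RDES mean 4.61), −4.45 for the lysyl oxidase LOX (5.49) and −3.77 for the TGF-β-binding proteoglycan decorin, DCN (6.32). The median of the list was −0.49. None of the 12 was lower or higher with Dox in all 4 shPRC1 lines, and the median Dox difference was −0.10. LOX and DCN were higher on the arrays labelled RDES shCtrl, with means of 14.95 and 12.57, than in the SK-N-MC shPRC1 lines, with 10.95 and 10.27. Of the 7 fibroblast and stroma markers above the filter, 4 were lower in RDES, 1 was higher and 2 did not pass, and their part in the differences was not tested.

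In the list of activation of latent TGF-β, 6 of 14 genes were lower in RDES, 1 was higher and 7 did not pass, with a median of −0.34. The integrin subunits ITGB5 and ITGAV, which form heterodimers that bind the latent complex, differed by −1.80 and −1.72. With RDES means of 5.64 and 4.60, below the filter, the integrin subunit ITGB8 differed by at least −3.20 and the proprotein convertase PCSK5 by at least −2.35. With Dox the convertase PCSK6 was lower in all 4 shPRC1 lines (−0.02, −0.73, −0.53 and −0.60), with a mean difference of −0.47 ± 0.31 (SD, n = 4 lines). Its shCtrl pairs had 0.33 and −0.28, and the median Dox difference of the list was −0.11.

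Among the other ligands of the superfamily, 4 genes lay above the filter. BMP6 was lower in RDES by at least −3.34 (RDES mean 5.90, below the filter), GDF6 and GDF11 were higher by 1.00 and 0.95, and BMP2 at −0.30 did not pass. The median was 0.33, and 0.14 with Dox, where GDF6 was higher in all 4 lines and had −0.06 and 0.16 in the shCtrl pairs. Of 6 secreted antagonists 3 were lower in RDES and 3 did not pass. SOSTDC1 differed by −2.16, and the BMP regulator CRIM1 and CER1, with RDES means of 6.37 and 6.497 just below the filter, by at least −3.89 and −1.69. The median was −1.22, and 0.05 with Dox. BMPER was higher with Dox in all 4 lines (0.69, 0.03, 0.03 and 0.10), beside −0.39 and 0.0041 in the shCtrl pairs.

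Of 13 other receptors and co-receptors, 3 were lower and 3 were higher in RDES and 7 did not pass, with a median of 0.10. The 3 higher genes encode activin receptors, ACVR2B with 2.02, ACVR2A with 2.01 and ACVR1B with 1.46. With Dox, the pseudoreceptor BAMBI, which dampens TGF-β signalling, was higher in all 4 shPRC1 lines (0.61, 0.39, 0.40 and 0.90), beside 0.28 and −0.01 in the shCtrl pairs. The BMP type II receptor BMPR2 was lower in all 4 (−0.31, −0.62, −0.54 and −0.28), beside 0.60 and 0.08 in the shCtrl pairs. ACVR2B was also lower in all 4 (−0.008, −0.57, −0.34 and −0.46), beside 0.16 and −0.34 in the shCtrl pairs. The median was −0.05.

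Of 26 SMADs and regulators, 8 were lower and 6 were higher in RDES and 12 did not pass, with a median of −0.12. The SMAD corepressor TGIF2 differed by 1.87, the receptor-associated STRAP by 1.28 and the ubiquitin ligase WWP1 by −1.28. With Dox, SMAD1, which carries BMP signals, was higher in all 4 lines (0.26, 0.17, 0.35 and 0.56), as was LEMD3 (0.11, 0.21, 0.24 and 0.23), and the median was −0.05. Both were also higher with Dox in the shCtrl pairs, SMAD1 by 0.21 and 0.01 and LEMD3 by 0.16 and 0.06.

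Of 24 genes that TGF-β induces in many cell types, 11 were lower and 8 were higher in RDES and 5 did not pass, with a median of −0.47. Vimentin, VIM, differed by −3.30, the tropomyosin TPM1 by −2.90 and the transcription factor TWIST1 by −2.76, while smooth muscle actin, ACTA2, differed by 2.33. With Dox, VIM was lower in all 4 shPRC1 lines (−0.05, −0.40, −1.98 and −0.90), beside 0.26 and −0.05 in the shCtrl pairs. CCN2 was higher in all 4, with 0.13 and −0.25 in the shCtrl pairs, and so was the protease inhibitor TIMP1, with 0.11 and 0.17 there. The median Dox difference was 0.01.

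**Figure D4:**
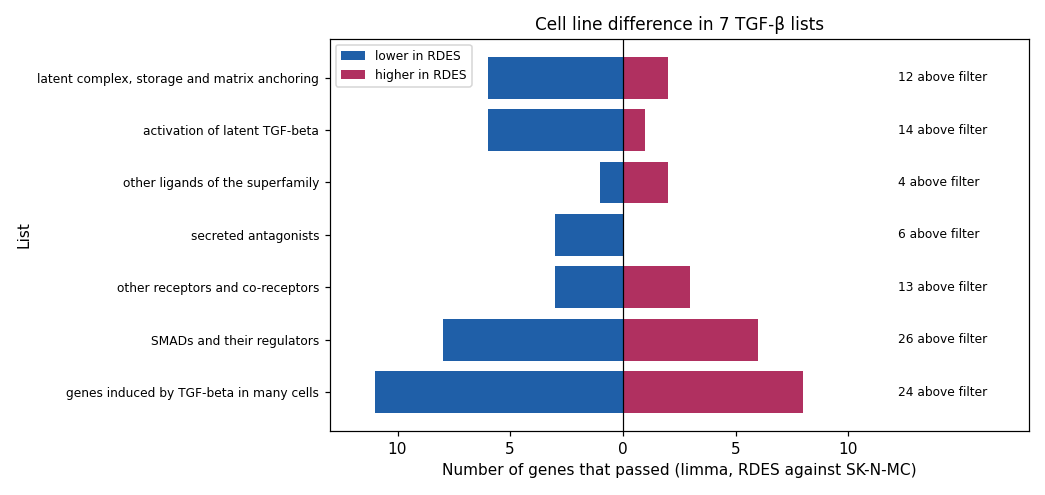
Number of genes (x axis, counted to both sides of 0) of each of the 7 TGF-β lists (y axis) that were lower in RDES (blue, left) or higher in RDES (red, right) than in SK-N-MC with an adjusted p under 0.05 in limma; the number above the filter stands at the right. Of 12 latent complex genes 6 were lower and 2 higher, and of 6 secreted antagonists 3 were lower and 0 higher.

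The promoter windows of the members, 250 bases before to 50 after each annotated start in RefSeq (GRCh38.p14), were searched on both strands for letters of 5 motifs. The search was made because LTBP1, LTBP4, TGFB1 and TGFB3 were lower in RDES together. The AP-1 letters TGACTCA were in 4.95% of all 35116 windows and in 0 of the 22 windows of members. The paired ETS letters GGAAGGAA were in 3.67% and in 1 (TGFBR1), the SMAD palindrome GTCTAGAC in 0.202% and in 0, and the short SMAD letters CAGACA in 16.9% and in 6. These 6 windows belong to LTBP1, LTBP4, TGFB2 and TGFBR1. No window of TGFB1 or TGFB3 held any of the 5 motifs. The CRE letters TGACGTCA were in 1.85% of all windows and in 1 of the members', which belongs to LTBP1. This stretch is shown because LTBP1 carries the widest differences, with the motif in capitals. It lies at chr2:32946849-32946876 on the forward strand, and the motif begins 94 bases before the first of the 3 annotated LTBP1 starts.
LTBP1 promoter: atctgccgccTGACGTCAcgtctgccgg
A match of letters is a description and not a binding site, and the array signal of LTBP1 is for the gene as a whole and does not separate its starts.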

How the data were processed

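The authors deposited log2 signals per probe set of Clariom D arrays, made by SST-RMA (background correction, quantile normalization and summary of probes per gene). RMA and hg38 stand in the processing notes of the submitters. Of 135750 probe sets, 36176 had 1 gene symbol in the platform annotation, 1119 had several and 98455 had none; only the first kind was used, with the probe set of the highest mean per gene. Genes with a mean of at least 6.5 over the 6 Dox (−) arrays, the filter of the study's methods, were tested, 15247 in all. Array medians were 5.29 to 5.40. The package limma 3.58.1 (R 4.3.3; two-sided moderated tests from lmFit and eBayes) was run on 1 value per derivative line: the Dox difference, with shPRC1 against shCtrl and cell line as terms, for the silencing effect; the mean of the Dox (−) and Dox (+) arrays, RDES minus SK-N-MC, over the 4 shPRC1 lines for the cell line difference; and the Dox difference between the cell lines. The Benjamini-Hochberg adjustment covered all genes tested, with a threshold of 0.05. A p-value here reflects how much derivative lines vary, in the gene itself and over all genes, and precision is limited by the number of arrays. The fits were tested on simulated data. Tables and plots were made with Python 3.11.15.

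The members and lists were chosen with earlier results of these data known. Named are the members, PRC1, STAG2, BGN, the genes of each list with the widest cell line or Dox differences (up to 3 each), the 8 genes most like LTBP1 over the 12 arrays and, chosen after their values were seen, LEMD3 and CCN2 of the lists. Alternatives covered the filter, the probe set rule, the prior variance, the shCtrl subtraction, the Dox (−) arrays alone, the shCtrl lines as labelled and each derivative line left out. Hairpin sequences came from the study's oligonucleotide list and promoters from RefSeq.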

Additional observations from a re-analysis of the deposited data

Results flagged for a closer look

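LTBP1 was lower with Dox in all 4 shPRC1 lines and higher with Dox in both shCtrl pairs. The mean Dox difference of the shPRC1 lines less that of the shCtrl pairs was −1.47 on the log2 scale. This difference between the groups was not tested. LTBP1 was chosen for being lower in all 4 shPRC1 lines, so only the signs of the shCtrl pairs add to that condition. Of the 779 genes lower in all 4 lines, 214 were also higher in both shCtrl pairs, which is 1.4% of all genes.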

How the results depend on the processing

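With all 6 derivative lines as labelled, 0 genes were lower and 0 were higher in RDES. The arrays labelled RDES shCtrl lay with SK-N-MC in STAG2 and BGN. The differences were then −2.49 for LTBP1, −1.76 for TGFB1, −0.58 for TGFB3, −0.65 for LTBP4 and 1.51 for TGFBR3 (limma, adjusted p from 0.3535 to 0.4322). Leaving out 1 derivative line at a time gave 1640 to 3792 genes lower and 1249 to 2773 higher, where TGFBR1 ran from −0.16 to 0.40. The lowest counts came without SK-N-MC shCDS (1640 and 1465) and without SK-N-MC shUTR (1791 and 1249). On the Dox (−) arrays alone, 3185 genes were lower and 2111 higher. The differences were then −4.15 for LTBP1, −1.34 for LTBP4, −2.72 for TGFB1, −1.15 for TGFB3 and 1.72 for TGFBR3. These members still passed (limma, adjusted p from 2.265e-05 to 0.02212). With the SK-N-MC shCtrl line added and the pair labelled RDES shCtrl left out, an alternative chosen after seeing the data, 2733 genes were lower and 2255 higher, and LTBP1 (−3.50), LTBP4 (−0.90), TGFB1 (−2.10), TGFB3 (−1.01) and TGFBR3 (2.10) still passed.

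The silencing fit passed 1 gene with a prior variance that follows the signal and 0 to 1 with a line left out (1 without SK-N-MC shCDS), and without the shCtrl subtraction LTBP3 was −0.27 in place of 0.09. The fit of the Dox effect between cell lines passed 188 genes with the shCtrl differences subtracted, where LTBP3 was −0.059, and 5 to 70 with a line left out (70 without RDES shUTR), where LTBP3 ran from −0.056 to 0.37 and TGFBR1 from −0.45 to 0.51. In the fit that passed 188 genes, the same shCtrl pair was taken off both lines of a cell line. Its standard errors were thus those of the fit without subtraction (0.38 for LTBP1 in both) and hold no error of the shCtrl pairs. The pair taken off the RDES lines lay with SK-N-MC in STAG2 and BGN. The count of 188 is therefore no measure of how many genes differ. The causes were not tested. LTBP2 and TGFBI were too dim for any comparison. The subtraction of 1 shCtrl pair from all 4 lines was also chosen after seeing the data, and moved no member by more than 1 SD of the 4 lines.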
